A study of Mus musculus with 6 samples.

Results

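The ATF4 and amino acid response genes are the transcripts that mammalian cells raise when amino acids run short or when protein folding or mitochondria fail. The 35 members were taken from a fixed list of mouse symbols, chosen with earlier results of these data known. All 35 were found among the 53762 gene symbols in the count files. They were placed in 5 groups by role: transcription factors, stress effectors and secreted products, serine and folate enzymes, other amino acid enzymes, and amino acid transporters. RNA was sequenced from MEFs, immortalized connective tissue cells that derive from mouse embryos, which were kept in high-glucose DMEM with 10% fetal bovine serum and collected 24 hours after seeding. The 6 libraries are 3 from wild-type cells (WT 1 to WT 3) and 3 from cells without PME-1 (KO 1 to KO 3), and no drug or starvation is given in the labels for either group. PME-1, the product of Ppme1, is the esterase that demethylates the catalytic subunit of the phosphatase PP2A. The titles of all 3 KO libraries name PME-1, while the genotype entries of KO 2 and KO 3 name PME-2 and PME-3, so groups were taken from the titles.

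In this response a kinase that senses stress phosphorylates the translation factor eIF2, which lowers protein synthesis in general but lets the mRNA of ATF4 be translated. ATF4 is a bZIP transcription factor, a protein that binds DNA as a dimer through a basic region and a leucine zipper. With C/EBP partners it binds a composite element, the C/EBP-ATF response element (CARE), and raises genes for amino acid synthesis, amino acid uptake and stress feedback. Since ATF4 is controlled mainly at translation, a count of its mRNA does not measure its protein.

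The CARE letters TGATGNAA were looked for on both strands of the RefSeq promoter windows of build GRCm38.p6, each of 300 bases from 250 before to 50 after a transcript start. Windows were found by symbol for 29 members (34 windows), and 10 of these members, or 34.5%, held the letters in a window. Over all 27025 genes with a window the share was 4.51%. The 10 members came from every role group but the serine and folate enzymes: Atf3, Trib3, Chac1, Nupr1, Vldlr, Asns, Pck2, Pycr1, Slc7a11 and Slc1a4. The cyclic AMP response element TGACGTCA, which resembles CARE in part but cannot be matched by the same 8 letters, was in the windows of 0 of the 29 members and of 2.03% of all genes. A match describes the letters and not a bound site, and no match says only that these letters are not in the window. The sites are shown because these 10 genes are compared below with the other members. Each is printed 5′ to 3′ on the strand of its gene with CARE in capitals, and TTNCATCA is the same element read from the opposite strand.
Atf3 (chr1:191183416-191183463, minus): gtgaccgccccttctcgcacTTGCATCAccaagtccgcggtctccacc
Chac1 (chr2:119351029-119351076, plus): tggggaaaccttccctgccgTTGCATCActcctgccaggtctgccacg
Trib3 (chr2:152344029-152344056, minus): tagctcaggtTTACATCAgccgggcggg
Slc7a11 (chr3:50443633-50443699, minus): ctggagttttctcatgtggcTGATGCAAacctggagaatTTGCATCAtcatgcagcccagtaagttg
Asns (chr6:7693210-7693252, minus): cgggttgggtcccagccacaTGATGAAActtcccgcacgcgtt
Nupr1 (chr7:126625553-126625600, minus): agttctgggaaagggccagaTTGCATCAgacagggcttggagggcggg
Slc1a4 (chr11:20332700-20332727, minus): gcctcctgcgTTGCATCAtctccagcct
Pycr1 (chr11:120643824-120643871, minus): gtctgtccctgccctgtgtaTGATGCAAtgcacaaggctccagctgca
Pck2 (chr14:55540143-55540190, plus): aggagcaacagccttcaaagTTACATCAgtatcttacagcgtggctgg
Vldlr (chr19:27216800-27216847, plus): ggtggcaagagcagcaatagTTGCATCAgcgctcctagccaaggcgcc
Slc7a11, the cystine transporter, held the element in both orientations within 1 stretch. In Atf3 and Nupr1 the element began 110 bases before the start and in Pck2 and Pycr1 103 bases before it. Chac1 and Vldlr had it farther away, at 193 and 200 bases, and Asns at 23 bases. In Slc1a4 it lay across the start and in Trib3 it began 14 bases after the first transcribed base.

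Values below are CPM, the usual per-library scaling of read counts, with TMM factors, which correct library sizes for differences in composition. KO was compared with WT by edgeR's quasi-likelihood test, which gives each log2 fold change and its standard error (SE), with p-values adjusted by the Benjamini-Hochberg method over all 15223 genes tested and a threshold of 0.05. The labels do not tell whether the 3 libraries of a group are separate cultures, and p-values therefore cover no more than the spread among these samples, possibly a technical one. Total counts ranged from 34450993 to 44116310 per library, and 3 counts correspond to 0.0689 to 0.0881 CPM. Ppme1 was at 81.9 ± 4.22 CPM (SD, n = 3) in WT and 17.4 ± 2.14 CPM (SD, n = 3) in KO, lower in each KO library than in any WT library. WT 1 and KO 1 stood apart from the other libraries of their own genotype. Their deviations from the group means ran in opposite directions across genes (Pearson r = -0.51). WT 1 deviated with KO 2 and KO 3 (r = 0.36 and 0.32). KO 1 deviated with WT 2 and WT 3 (r = 0.39 and 0.30). Libraries were also compared by chi-square per degree of freedom, which is lower for more alike counts. WT 1 was at 90.1 and 82.3 from KO 2 and KO 3 and at 128 and 115 from WT 2 and WT 3. KO 1 was at 137 and 118 from KO 2 and KO 3 and at 121 and 129 from WT 2 and WT 3. WT 2 with WT 3 was at 12.7 and KO 2 with KO 3 at 13.1. Xist was at 431 CPM on average in WT and 0.229 in KO, while the Y-linked Ddx3y was at 0 in every WT library and at 63.0 CPM on average in KO, so genotype cannot be told apart from a difference in the sex of the embryos behind the lines. Fibroblast markers summed to 16311 to 22791 CPM in WT and 13197 to 15417 CPM in KO, and of the 12 tested Col1a1, Col6a1 and Pdgfrb fell. Blood markers summed to at most 4.94 CPM, with Adgre1, Cd3e and Itgam at 0 in all libraries. The epithelial markers summed to 2.33 to 2.66 CPM in WT and 59.7 to 115 CPM in KO, nearly all from the keratin Krt18, while Krt5 and Krt14 were at 0 and Epcam and Cdh1 stayed at or below 1.18 CPM. Krt8 and Krt18 rose. Sums of the endothelial and neural lists were at most 3.44 and 39.4 CPM, where Tek rose and Map2 fell. The part of the keratin difference in the results below was not tested.

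Across the list, levels were mostly higher in KO cells, but only Stc2 and Atf3 passed the threshold. Of 35 members tested, 2 rose and 0 fell, where 3.55% of all genes rose and 3.86% fell, 7.4% in either direction, so the count of calls was near the background. The log2 fold change was above 0 for 29 members and below 0 for 6, with a median of 0.51 against 0.01 over all genes tested. Without KO 1 the split was 24 above and 11 below with a median of 0.28, and without WT 1 and KO 1 it was 22 and 12 with a median of 0.47. For 14 members every KO library lay above every WT library, and for 0 members below; among all genes 14.6% lay above and 15.4% below. DESeq2, another count test, called 11 members higher and 0 lower, against 7.85% higher and 7.96% lower of all genes, and limma-voom called 3 higher and 0 lower, against 3.72% higher of all genes. In bulk RNA, fewer cells with a transcript and less of it per cell cannot be told apart.

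**Figure D1:**
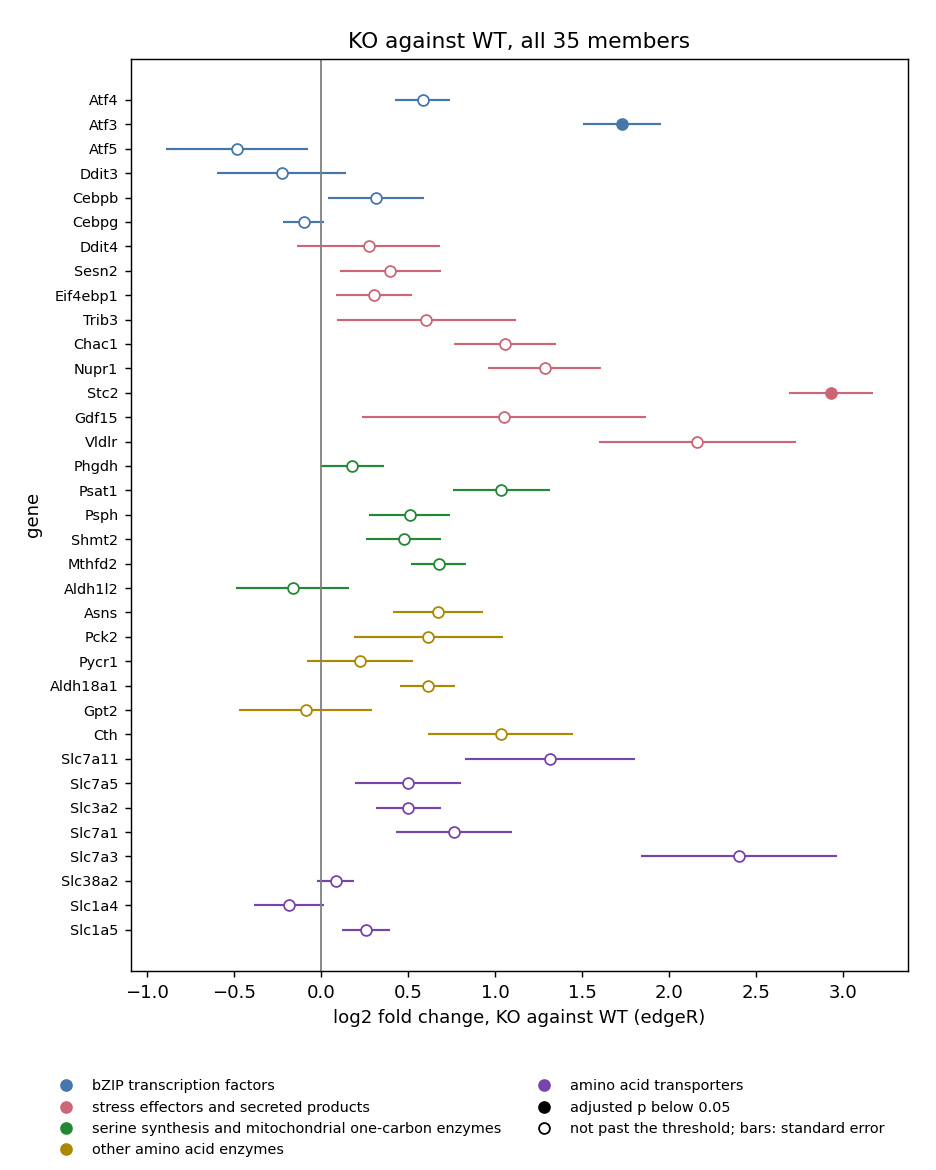
Log2 fold change of each member in KO against WT (x axis) by gene (y axis), from edgeR with 3 libraries per group. Bars are standard errors, colours are role groups, and filled points (Stc2 and Atf3) had an adjusted p below 0.05. Points lie right of 0 for 29 members, and Atf5, Ddit3, Cebpg, Aldh1l2, Gpt2 and Slc1a4 lie left of it.

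The library KO 1 held the highest level of 28 of the 35 members, where it held the highest level of 24.2% of all genes tested. Measured on a log2 scale from the 6-library mean of each gene, the median member was at -0.04, -0.36 and -0.37 in WT 1, WT 2 and WT 3 and at 0.70, 0.12 and 0.14 in KO 1, KO 2 and KO 3. The order of libraries differed by role. All 14 serine and folate enzymes and transporters were higher in WT 1 than in WT 2 and WT 3, as were 39.9% of all genes. In contrast, 10 members, among them Trib3, Nupr1, Ddit4, Vldlr and Pck2, were lowest in WT 1 among WT libraries and highest in KO 1. Of all 15223 genes tested 4891 were lowest in WT 1 and highest in KO 1 within their genotypes. Because KO 1 is 1 library, each group below is also given with WT 1 and KO 1 both left out, which was decided with the data in view. That fit sets KO 2 and KO 3 against WT 2 and WT 3, so whatever KO 2 and KO 3 share with WT 1 cannot be told apart from genotype there.

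**Figure D2:**
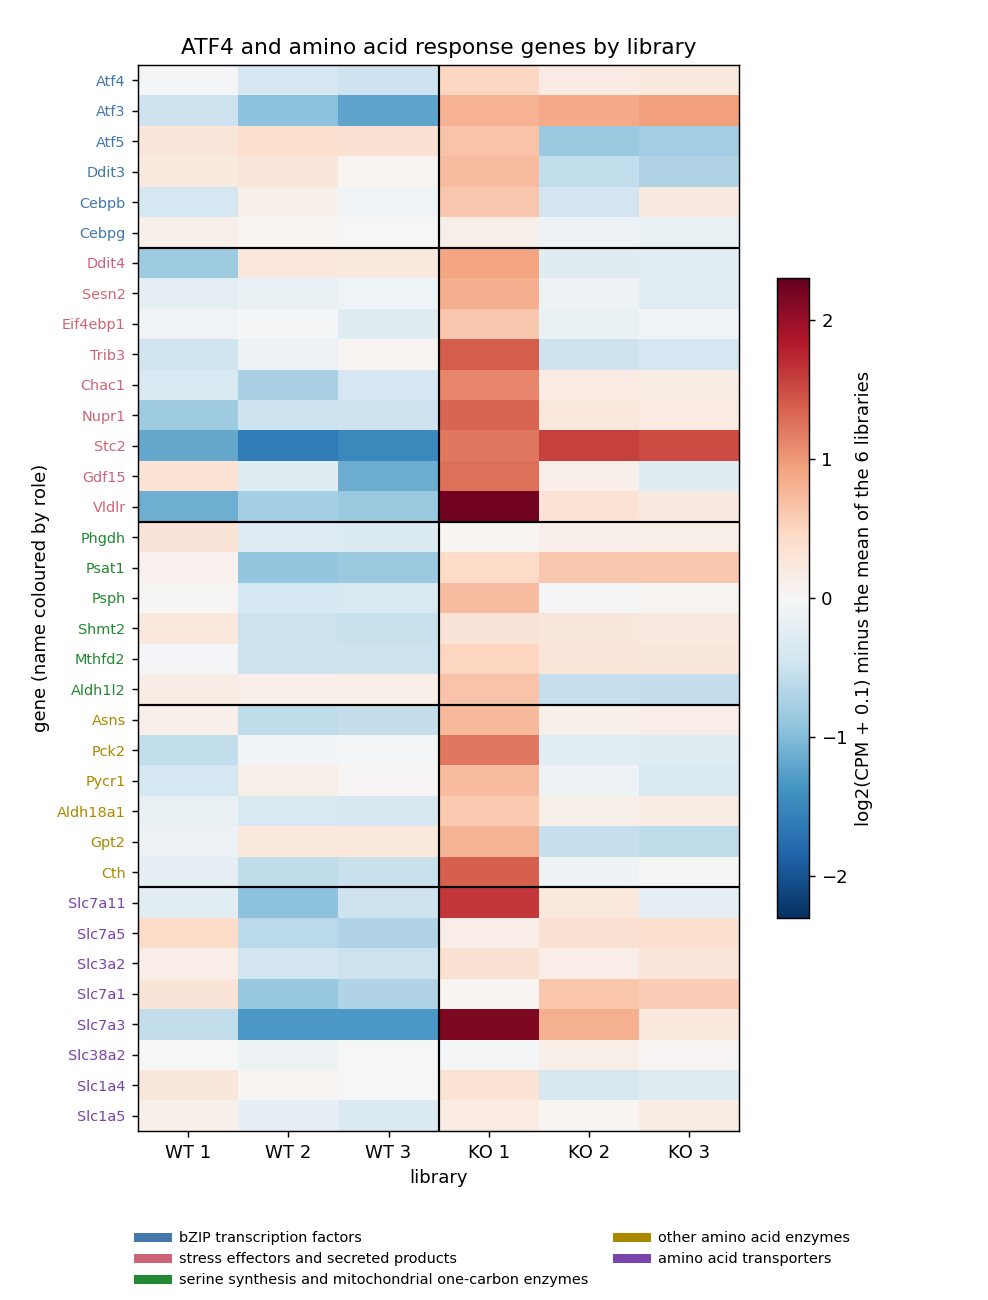
Level of each member (rows, grouped and coloured by role) in each library (columns), as log2(CPM + 0.1) minus the mean of the 6 libraries. Red is above that mean and blue below. The KO 1 column is the reddest of its row for 28 of 35 members. Stc2 and Atf3 are red in all 3 KO columns and blue in all 3 WT columns. The same holds for Atf4, Chac1, Nupr1, Vldlr, Mthfd2, Aldh18a1 and Slc7a3.

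Of the 6 transcription factors, 1 rose, Atf3, and 0 fell. Atf4, the central factor, stood at 327, 252 and 238 CPM in WT 1, WT 2 and WT 3 and at 459, 378 and 387 CPM in KO 1, KO 2 and KO 3. Every KO library was above every WT library, and the log2 fold change of 0.58 (SE 0.16) did not pass (edgeR adjusted p = 0.0812). DESeq2 gave an adjusted p of 0.0121. Per kilobase of exon Atf4 was the second most abundant member in both genotypes, at 116 CPM per kb in WT and 173 in KO, behind Phgdh. Atf4 (ENSMUSG00000042406.8) lies on chromosome 15 from 80255184 to 80257541 in GENCODE M21 on GRCm38, on the plus strand.

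Atf3, a stress-induced bZIP factor that acts downstream of ATF4 and of other pathways, rose 3.32-fold. Its levels were 7.27, 5.24 and 4.34 CPM in WT libraries 1 to 3 and 17.7, 18.6 and 19.5 CPM in KO libraries 1 to 3. The groups were far apart, with KO 1 the lowest of the KO libraries and WT 1 the highest of the WT libraries. The log2 fold change was 1.73 (SE 0.22, edgeR adjusted p = 0.00713). Leaving out 1 library at a time moved it between 1.57 and 1.96. The gene (ENSMUSG00000026628.13) spans chr1:191170296-191218039, minus strand. The 250 bases before its RefSeq start are shown because Atf3 is the only member that both rose and held CARE letters, which are in capitals.
Atf3 (chr1:191183334-191183583, minus): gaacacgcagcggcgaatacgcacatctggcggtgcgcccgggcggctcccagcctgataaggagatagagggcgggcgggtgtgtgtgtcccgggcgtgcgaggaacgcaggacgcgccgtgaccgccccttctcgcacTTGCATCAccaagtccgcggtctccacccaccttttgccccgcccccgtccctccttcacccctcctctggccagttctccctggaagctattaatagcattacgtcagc

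Atf5 and Ddit3 did not follow Atf4 across libraries. Atf5, a bZIP factor tied to mitochondrial stress, was at 120.1, 128 and 126 CPM in WT and at 156, 54.4 and 56.5 CPM in KO 1, KO 2 and KO 3. KO 1 was above and KO 2 and KO 3 below every WT library, and the fold change did not pass (log2 fold change -0.48, SE 0.41, edgeR adjusted p = 0.551). Ddit3, which encodes CHOP, a factor linked to cell death in prolonged stress, had the same order, with 31.3, 32.6 and 28.2 CPM in WT and 43.8, 18.2 and 16.6 CPM in KO. Without KO 1 Atf5 fell 2.25-fold (edgeR adjusted p = 0.0033) and Ddit3 fell 1.77-fold (adjusted p = 0.0241). With any other 1 library left out, 0 of the 6 factors fell. Cebpb and Cebpg, partners of ATF4, had overlapping groups. Cebpb was at 37.4 ± 6.71 CPM (SD, n = 3) in WT and 46.5 ± 16.3 CPM in KO, and Cebpg at 68.5 ± 2.64 and 63.8 ± 7.53 CPM. In Cebpb 20.7% of the exon bases also lie in exons of Tmem189 on the opposite strand. The same holds for 14.1% of the exon bases of Aldh1l2 (with D10Wsu102e) and 10.4% of those of Psph (with Cct6a), members described below. Whether the counting used strand is not given in the sources used here, so reads of these stretches are uncertain. Without WT 1 and KO 1, Atf4 and Atf3 rose and Atf5 and Ddit3 fell among the 6 factors, where 23.3% of all genes rose and 24.6% fell.

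**Figure D3:**
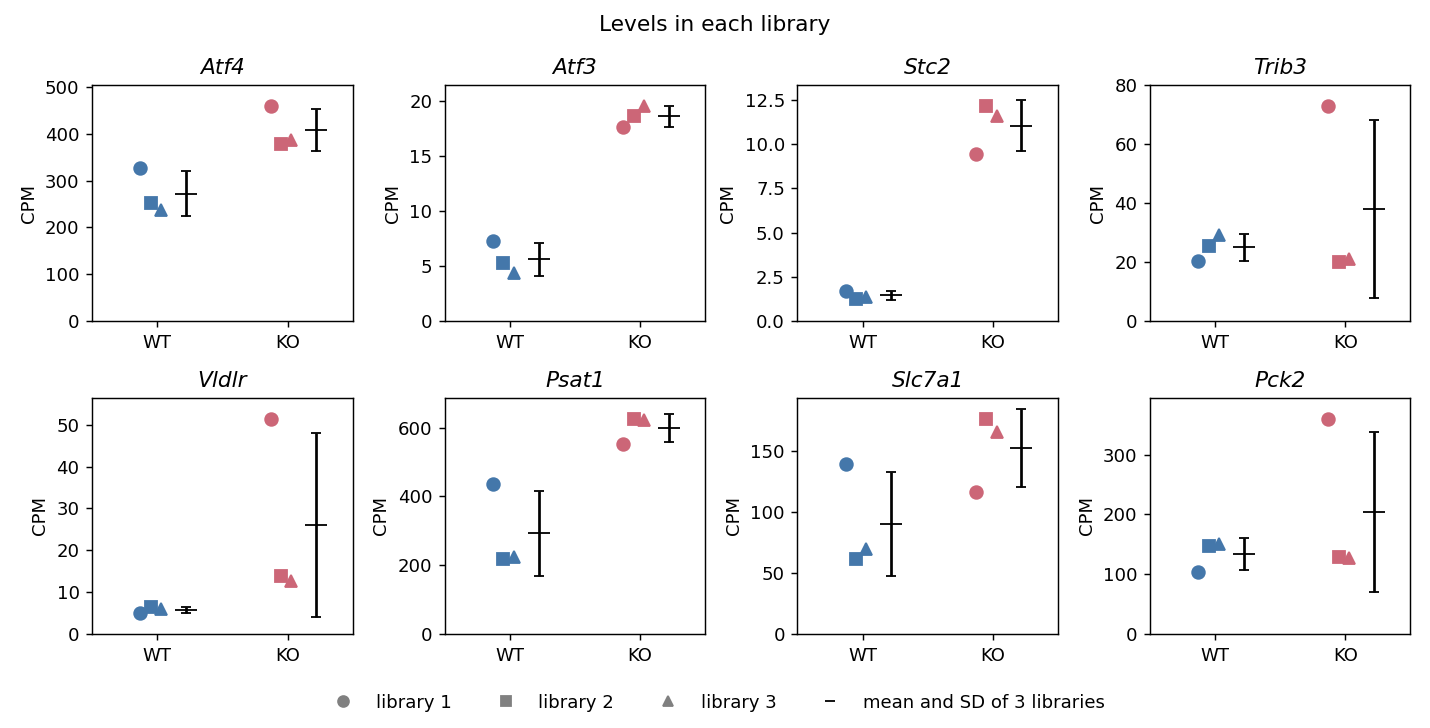
CPM in each library (y axis, from 0) of 8 members in WT and KO cells (x axis), with circles, squares and triangles for libraries 1, 2 and 3 and bars for the mean and SD of 3 libraries. Atf4, Atf3, Stc2, Vldlr and Psat1 have every KO point above every WT point. In Trib3 and Pck2 the KO 1 circle stands alone above all others, and in Slc7a1 the WT 1 circle lies above the KO 1 circle.

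Among the 9 stress effectors and secreted products, 1 rose, Stc2, and 0 fell, and all 9 log2 fold changes were above 0, with a median of 1.05. Stc2 encodes stanniocalcin 2, a secreted glycoprotein induced by stress of the endoplasmic reticulum. It was at 1.72, 1.25 and 1.38 CPM in WT (62, 54 and 60 counts) and at 9.44, 12.1 and 11.6 CPM in KO 1, KO 2 and KO 3 (365, 517 and 394 counts). No KO library came near the WT range, and the level was 7.63-fold higher (log2 fold change 2.93, SE 0.24, edgeR adjusted p = 0.00153). The log2 fold change stayed between 2.83 and 3.07 when 1 library was left out. Like Atf3, Stc2 was lowest in KO 1 among the KO libraries, where 28 members were highest. The gene (ENSMUSG00000020303.2) spans chr11:31357307-31370074, minus strand. The 250 bases before its RefSeq start, shown because it was the larger of the rises, hold no match to TGATGNAA.
Stc2 (chr11:31370062-31370311, minus): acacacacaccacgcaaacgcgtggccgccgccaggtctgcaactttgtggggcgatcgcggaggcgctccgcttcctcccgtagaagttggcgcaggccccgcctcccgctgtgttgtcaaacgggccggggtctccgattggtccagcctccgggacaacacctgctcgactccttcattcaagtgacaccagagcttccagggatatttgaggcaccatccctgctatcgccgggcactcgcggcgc

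Vldlr, Nupr1 and Chac1 were higher in every KO library than in any WT library, with KO 1 far above the rest. None of these genes passed in edgeR, while DESeq2 called all of them higher (adjusted p = 0.000759, 0.00195 and 0.00905). With Stc2 this made 4 calls among the 9, where DESeq2 called 7.85% of all genes higher. Vldlr, a lipoprotein receptor, was at 4.99, 6.33 and 6.06 CPM in WT and at 51.3, 13.9 and 12.7 CPM in KO 1, KO 2 and KO 3. KO 1 was 3.84-fold above the mean of KO 2 and KO 3. The fold change was 4.48 over all libraries (edgeR adjusted p = 0.0725), and without KO 1 Vldlr rose 2.29-fold (adjusted p = 0.0232). Nupr1, a small chromatin protein induced by stress, was at 33.2, 41.7 and 41.7 CPM in WT and at 148, 68.9 and 66.8 CPM in KO. Its fold change was 2.43 (adjusted p = 0.0667), and without KO 1 it rose 1.74-fold (adjusted p = 0.0259). With any other 1 library left out, neither Vldlr nor Nupr1 passed. Chac1, which degrades glutathione, was at 17.5, 13.3 and 17.1 CPM in WT and at 49.1, 25.4 and 25.1 CPM in KO (2.08-fold, adjusted p = 0.0858).

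In the feedback and growth inhibitors the groups overlapped. Trib3, a pseudokinase that restrains ATF4 and AKT, was at 20.2, 25.5 and 29.2 CPM in WT and at 72.8, 19.9 and 21.2 CPM in KO, so KO 2 and KO 3 lay within or below the WT range. Ddit4, an inhibitor of mTORC1 also named REDD1, was at 69.1, 144 and 143 CPM in WT and at 228, 99.9 and 102 CPM in KO. WT 1 was the lowest library and KO 1 the highest. Sesn2, a leucine sensor that restrains mTORC1, was at 28.3 to 30.9 CPM in WT and at 59.1, 30.5 and 27.6 CPM in KO 1, KO 2 and KO 3. Eif4ebp1, an inhibitor of cap-dependent translation, was at 105 to 123 CPM in WT and at 196, 114 and 121 CPM in KO. Both were high in KO 1 alone. Gdf15, a secreted stress cytokine, had only 13, 9 and 3 counts in WT and 31, 13 and 7 counts in KO, and no difference was detectable at this depth (adjusted p = 0.515). Without WT 1 and KO 1, Stc2, Vldlr, Chac1 and Nupr1 rose and Ddit4 and Trib3 fell among the 8 that could be tested. Of all genes 23.3% rose and 24.6% fell in that fit.

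The 6 serine and folate enzymes gave 0 calls in edgeR, with 2 at an unadjusted p under 0.05 (22.2% of all genes). DESeq2 called 2 higher (7.85% of all genes) and limma-voom called 1 higher (3.72% of all genes). Phgdh, Psat1 and Psph make serine from a glycolytic intermediate in that order. Psat1 was at 435, 219 and 225 CPM in WT and at 551, 624 and 623 CPM in KO 1, KO 2 and KO 3. All KO libraries were above all WT libraries, and WT 1 lay between WT 2 and KO 1. The level was 2.05-fold higher in KO without passing (log2 fold change 1.03, SE 0.28, edgeR adjusted p = 0.0797). Without WT 1 Psat1 rose 2.71-fold (adjusted p = 0.00361). It did not pass with any other 1 library left out (adjusted p = 0.239 without WT 2 and 0.264 without WT 3). Phgdh, the first enzyme and the most abundant member per kilobase, was at 562, 375 and 369.8 CPM in WT and at 476, 496 and 506 CPM in KO, so WT 1 was the highest of all libraries (adjusted p = 0.634). Phgdh has processed pseudogenes of at least 95% identity in the count files, of which Gm7901 held 1.61% as many counts as Phgdh, so a small share of its reads is uncertain. Psph was at 42.1 to 56.8 CPM in WT and at 91.3, 53.8 and 58.2 CPM in KO.

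Shmt2 and Mthfd2 carry the folate cycle of mitochondria forward from serine. Mthfd2 was at 129.5, 95.5 and 94.3 CPM in WT and at 188, 162 and 159.8 CPM in KO, every KO library above every WT library. At 1.60-fold (log2 fold change 0.68, SE 0.16) it missed the threshold in edgeR (adjusted p = 0.0515) and passed in DESeq2 (adjusted p = 0.00306). Shmt2 was at 376, 226 and 224 CPM in WT and at 394, 384 and 367 CPM in KO, where WT 1 lay inside the KO range. Over all libraries Shmt2 was 1.39-fold higher without passing (edgeR adjusted p = 0.264). Without WT 1 Shmt2 rose 1.71-fold and Mthfd2 1.80-fold (adjusted p = 0.0142 and 0.0182), and without WT 2 or WT 3 neither passed. Aldh1l2, which oxidizes formyl-folate in mitochondria, took the order of Atf5: 132, 128 and 130.2 CPM in WT and 185, 82.1 and 80.6 CPM in KO. Without KO 1 it fell 1.60-fold (adjusted p = 0.0103), and with any other 1 library left out it did not pass. Without WT 1 and KO 1, 5 of these 6 enzymes rose and Aldh1l2 fell, where 23.3% of all genes rose and 24.6% fell.

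Of the 6 other amino acid enzymes 0 passed in edgeR, with 3 at an unadjusted p under 0.05 (22.2% of all genes). DESeq2 called Aldh18a1 higher (7.85% of all genes) and limma-voom called 0. All 6 were highest in KO 1 (24.2% of all genes). Asns, asparagine synthetase and a classic ATF4 target, was at 164, 101 and 103 CPM in WT and at 254, 164 and 167 CPM in KO 1, KO 2 and KO 3. KO 2 and WT 1 differed by less than 1 CPM, and the level was 1.59-fold higher (adjusted p = 0.188). Aldh18a1, which opens proline synthesis, was at 169.8, 149 and 147 CPM in WT and at 289, 208 and 214 CPM in KO (1.53-fold, edgeR adjusted p = 0.0687, DESeq2 adjusted p = 0.00796). Cth, which makes cysteine from cystathionine, was at 8.18 to 10.7 CPM in WT and at 32.1, 11.4 and 12.5 CPM in KO. For these 3 enzymes no KO library fell within the WT range.

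Pck2, Pycr1 and Gpt2 separated KO 1 from the other KO libraries more than they separated the genotypes. Pck2, the mitochondrial PEP carboxykinase, was at 104, 148 and 150.1 CPM in WT and at 359, 128 and 126 CPM in KO, so that KO 1 was 2.82-fold above KO 2 and KO 3. Gpt2, a mitochondrial alanine transaminase, was at 62.5, 81.3 and 81.8 CPM in WT and at 119, 47.5 and 45.7 CPM in KO. It was higher in KO 1 and lower in KO 2 and KO 3 than in any WT library. Without KO 1 Gpt2 fell 1.62-fold (edgeR adjusted p = 0.0495), and with any other 1 library left out it did not pass. Pycr1, the last enzyme of proline synthesis, was at 16.2 to 23.7 CPM in WT and at 35.3, 19.9 and 16.8 CPM in KO. Without WT 1 and KO 1, Asns, Aldh18a1 and Cth rose and Pck2 and Gpt2 fell. In that fit 23.3% of all genes rose and 24.6% fell.

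Of the 8 amino acid transporters 0 passed in edgeR, with 3 at an unadjusted p under 0.05 (22.2% of all genes). DESeq2 called Slc7a3 and Slc7a11 higher (7.85% of all genes) and limma-voom called 0. All 8 were higher in WT 1 than in the other WT libraries (39.9% of all genes). Slc7a3 and Slc7a1 carry arginine and lysine. Slc7a3, on the X chromosome, was at 2.02, 1.16 and 1.15 CPM in WT and at 13.8, 5.42 and 3.61 CPM in KO, every KO library above every WT library. The difference was 5.28-fold (log2 fold change 2.40, SE 0.56) and just missed the threshold (edgeR adjusted p = 0.0527). Slc7a1 was at 139, 61.4 and 69.6 CPM in WT and at 116, 176 and 165 CPM in KO 1, KO 2 and KO 3, so the libraries numbered 1 lay in the opposite order to the others. The fold change of 1.69 over all libraries did not pass (edgeR adjusted p = 0.243). Without WT 1 it rose 2.33-fold (adjusted p = 0.0225), and without WT 3 it was 1.52-fold higher (adjusted p = 0.554).

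Slc7a5 and Slc3a2 form the leucine transporter LAT1 with its heavy chain, and Slc3a2 also pairs with Slc7a11. Slc7a5 was at 319.6, 154 and 148 CPM in WT and at 266, 305 and 309 CPM in KO, with WT 1 the highest library. Slc3a2 was at 176, 118 and 113 CPM in WT and at 204, 177 and 194 CPM in KO, where WT 1 lay just under KO 2. Over all libraries both were 1.42-fold higher without passing (edgeR adjusted p = 0.398 and 0.183). Without WT 1 Slc7a5 rose 1.95-fold and Slc3a2 1.67-fold (adjusted p = 0.00975 and 0.0211), and without WT 3 they were 1.24-fold and 1.30-fold higher (adjusted p = 0.750 and 0.479). Slc7a11 was at 8.29, 5.11 and 7.05 CPM in WT and at 30.5, 11.7 and 8.58 CPM in KO, with KO 3 just above WT 1. The neutral amino acid carriers had overlapping groups. Slc38a2 was at 365 to 397 CPM in WT and 387 to 432 CPM in KO, Slc1a5 at 44.4 to 60.6 and 57.9 to 64.0 CPM, and Slc1a4 at 39.5 to 48.0 and 30.9 to 49.8 CPM. The last, a serine and alanine carrier, is the only transporter with a log2 fold change below 0 (-0.19, SE 0.20). Without WT 1 and KO 1, 6 transporters rose, Slc1a4 fell and Slc38a2 did not pass. The shares over all genes were 23.3% higher and 24.6% lower.

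**Figure D4:**
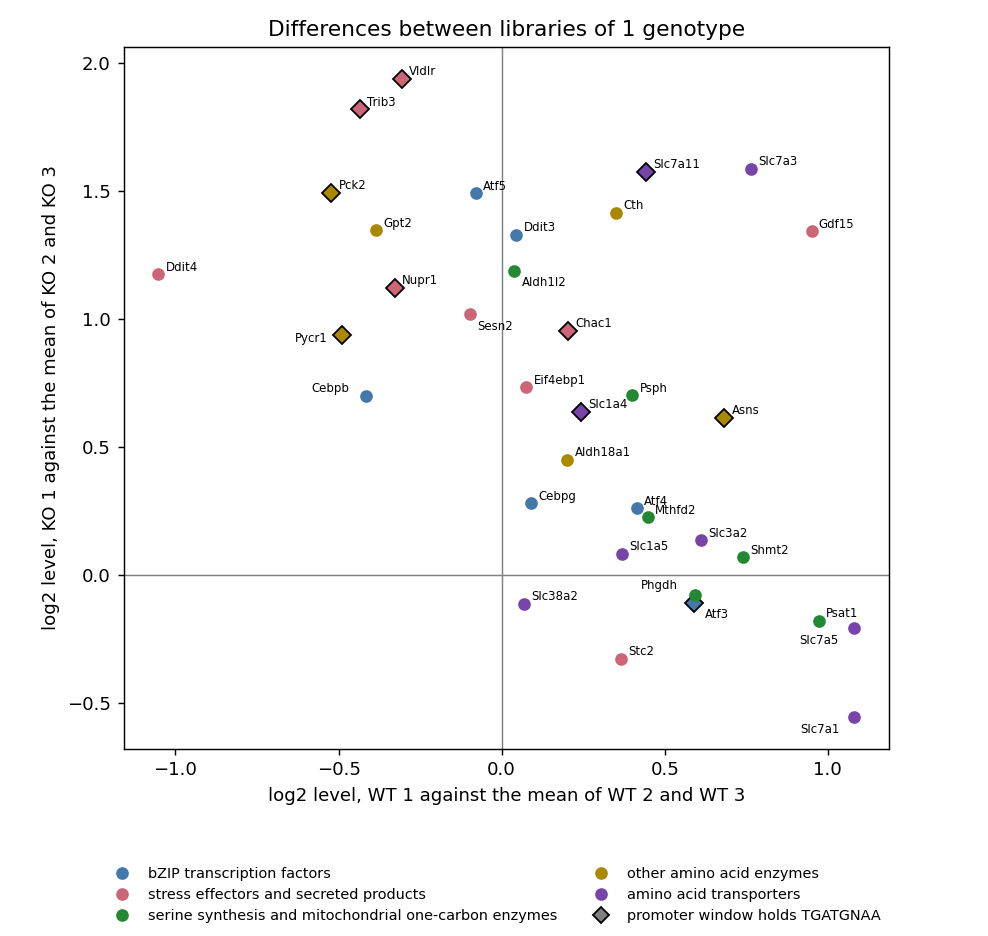
Each point is a member, with the log2 level of WT 1 against the mean of WT 2 and WT 3 on the x axis and of KO 1 against the mean of KO 2 and KO 3 on the y axis (0.1 CPM added), so that genotype plays no part. Colours are role groups, and diamonds mark the 10 members with TGATGNAA in a promoter window. Stress effectors such as Vldlr and Trib3 lie at the upper left, and Psat1, Slc7a5 and Slc7a1 lie at the lower right.

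The plot of differences within a genotype shows the members along a range and not in 1 direction. At one end were 10 members (4891 of the 15223 genes tested) lowest in WT 1 and highest in KO 1 within their genotypes: Atf5, Cebpb, Ddit4, Sesn2, Trib3, Nupr1, Vldlr, Pck2, Pycr1 and Gpt2. At the other end were 7 members (4475 of all genes) highest in WT 1 and lowest in KO 1: Atf3, Stc2, Phgdh, Psat1, Slc7a5, Slc7a1 and Slc38a2. A further 16 were highest in both libraries numbered 1, among them Atf4, Asns, Chac1, Mthfd2 and Slc7a3, a combination found in 875 of all genes. As shares, both ends lay at or below that of all genes. The median difference of KO 1 from KO 2 and KO 3 was 1.12 on the log2 scale for the stress effectors, 1.14 for the other amino acid enzymes, 0.49 for the transcription factors, 0.15 for the serine and folate enzymes and 0.11 for the transporters, and 0.01 over all genes. Of the 10 members with CARE letters 9 were highest in KO 1 of all 6 libraries, all but Atf3, and of the 19 with a window but no such letters 14 were. In these groups the median difference of KO 1 from KO 2 and KO 3 was 1.04 and 0.28. The 6 members without a window, whose letters are not known, had a median of 0.96, and 5 of them were highest in KO 1. The CARE group held no serine and folate enzymes, so letters and role cannot be told apart here. The list of members was chosen with earlier results of these data known, so the counts describe them and were not tested.

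Genes around the response were taken from lists of its upstream and neighbouring steps. They are read against the 7.4% of all genes called by edgeR and the 22.2% at an unadjusted p under 0.05. DESeq2 called 7.85% of all genes higher and 7.96% lower. Without WT 1 and KO 1, 23.3% of all genes rose and 24.6% fell. Of 14 genes for eIF2 kinases, the exchange factor eIF2B and eIF2 phosphatase, none was called by edgeR, DESeq2 or limma-voom, and 0 had an unadjusted p under 0.05 in edgeR. With WT 1 and KO 1 left out, 8 rose and 1 fell. The kinase genes Eif2ak3 (PERK) and Eif2ak4 (GCN2) were at 39.5 ± 5.44 and 54.8 ± 7.10 CPM (SD, n = 3) in WT and at 33.4 ± 2.87 and 58.3 ± 5.85 CPM in KO. Among 20 cytosolic aminoacyl-tRNA synthetases, which load amino acids onto tRNA and include known ATF4 targets, 1 rose and 0 fell. Qars went from 92.8 ± 3.30 to 136 ± 3.19 CPM (1.47-fold, edgeR adjusted p = 0.0165), and DESeq2 called 2 higher. In this list 19 genes were higher in WT 1 than in WT 2 and WT 3, the order of the transporters and of 39.9% of all genes. Without WT 1 and KO 1, 19 rose and 0 fell. Of 12 other folate and glycine enzymes 1 rose, Gldc, which cleaves glycine and lies under the level set for naming. Its counts summed to 3 in WT, each of them from WT 2, and to 95 in KO, 33.7 times as many (95% interval 11.2 to 167, counting error only). Of this list 6 rose and 1 fell without WT 1 and KO 1.

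Of 16 other amino acid transporters 1 rose and 0 fell, DESeq2 called 3 higher, and without WT 1 and KO 1, 3 rose and 2 fell. Slc38a1, a glutamine carrier close to Slc38a2, was at 80.6, 44.7 and 49.0 CPM in WT and at 202, 295 and 275 CPM in KO. It was 4.43-fold higher with no overlap (log2 fold change 2.15, SE 0.27, edgeR adjusted p = 0.00671), while Slc38a2 differed by 0.08 on the log2 scale (SE 0.11). Of 18 chaperone and unfolded protein response genes 0 passed in edgeR and 0 in limma-voom, with 5 at an unadjusted p under 0.05, and DESeq2 called 2 higher. With WT 1 and KO 1 left out, 10 rose and 2 fell. Hspa5 (BiP) is the main chaperone of the endoplasmic reticulum. Its levels were 1213, 1029 and 1025 CPM in WT and 873, 1573 and 1567 CPM in KO. Among the KO libraries 12 of the 18 genes, including Hspa5, were lowest in KO 1, where most stress effectors were highest. Of all 15223 genes tested 6434 were lowest in KO 1 in this way, and 43.8% were highest. Another 5 of the 18 were highest in KO 1, such as Herpud1. It was at 35.4, 52.5 and 40.9 CPM in WT and 88.2, 54.9 and 55.0 CPM in KO.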

How the data were processed

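Raw read counts per gene symbol were deposited by the authors, 1 column per library. Per the submitters' processing notes, reads went through Trim Galore 0.6.6 and HISAT2 2.2.1, and a human build is listed although the symbols are mouse symbols. Counter, annotation and strand setting: not given in the sources used here. Genes were filtered with filterByExpr, scaled with TMM and tested with edgeR 4.0.16 in R 4.3.3 (robust glmQLFit, glmQLFTest). The SE is the size of the log2 fold change divided by the square root of F. The tests were tried on simulated counts. DESeq2 1.42.0, limma-voom (limma 3.58.1), other factors, filters, the replicate number as a block and libraries left out were alternatives. Every member is named, and from the other lists genes that passed and averaged 1 CPM or more, with others chosen after their values were seen. The members and lists were chosen with earlier results of these data known. Lengths, positions and overlaps come from GENCODE M21 (Ddit3 has 2 gene IDs there, of which the longer was used), pseudogene matches from blastn 2.17.0 (at least 200 bases), and promoter sequences from RefSeq GRCm38.p6, on a build that may not be the authors'.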

Additional observations from a re-analysis of the deposited data

How the results depend on the processing

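Stc2 and Atf3 kept their direction and their call with DESeq2, limma-voom, other scaling factors, other filters and each library left out. They lost the call with the replicate number as a block (adjusted p = 0.072 and 0.124), where 0 members and 8 of all genes passed. Libraries with the same number did not deviate together (r = -0.51, -0.31 and -0.22 across genes). Deviations within a group of 3 depend on one another, so these values cannot tell whether a smaller shared batch is present. The labels do not say what libraries with the same number share. The count of members called higher was 11 with DESeq2, 2 to 9 with 1 library left out (9 without WT 1, 4 without KO 1) and 20 without WT 1 and KO 1. Members called lower numbered 0 to 4 with 1 library left out (4 without KO 1) and 8 without both. Over all genes 2406 were called with DESeq2, 332 to 1216 with 1 library left out, the lowest without WT 3, and 7408 without WT 1 and KO 1. The median log2 fold change of the members ran from 0.28 (without KO 1) to 0.69 (without WT 1).

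The sign turned for members that had not passed. Without WT 1 and KO 1 the log2 fold change was -0.51 for Ddit4, -0.41 for Trib3, -0.31 for Pycr1, -0.22 for Pck2, -0.091 for Cebpb and -0.064 for Sesn2. With 1 library left out it ran from -0.24 to 0.49 for Ddit4, -0.28 to 0.94 for Trib3, -0.16 to 0.44 for Pycr1, -0.072 to 0.89 for Pck2, -0.033 to 0.61 for Sesn2, -0.68 to 0.056 for Aldh1l2, -0.82 to 0.030 for Ddit3 and -0.69 to 0.16 for Gpt2. With library sizes alone Gpt2 was at 0.0019. The cause was not tested. Gdf15 could not be fitted without WT 1 and KO 1, since it did not pass the filter there. Depth limits Gdf15 and Gldc.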

Other observations

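Sesn2, Atf3, Gdf15 and Trib3 are also reached by p53 or other stress factors. Of 15 p53 target genes 0 passed in edgeR or limma-voom, and 3 had an unadjusted p under 0.05 in edgeR. DESeq2 called 1 higher and 1 lower. Over all genes edgeR called 7.4%, and 22.2% had an unadjusted p under 0.05. DESeq2 called 7.85% of all genes higher and 7.96% lower. Sesn1, the p53-responsive relative of Sesn2, was at 24.8, 56.1 and 60.0 CPM in WT and at 21.4, 21.9 and 19.8 CPM in KO, below WT in every KO library, while only KO 3 lay below the WT range of Sesn2. Cdkn1a, the p53-induced cell cycle inhibitor, was at 37.3, 85.6 and 80.8 CPM in WT and at 103, 32.6 and 31.4 CPM in KO. It was highest in KO 1, as Ddit4 was. Among the KO libraries 11 of the 15 p53 genes were highest in KO 1, against 43.8% of all genes, and 3 were lowest there. Of the p53 genes 2 rose and 10 fell without WT 1 and KO 1, where 23.3% of all genes rose and 24.6% fell. Slc7a11 is shared with NRF2, the factor of the oxidative stress response. Of 10 NRF2 genes 0 passed in edgeR or limma-voom, and 4 had an unadjusted p under 0.05 in edgeR (22.2% of all genes). DESeq2 called 1 higher (7.85% of all genes). In the fit without WT 1 and KO 1, 3 of them rose and 3 fell. Gclc, which starts glutathione synthesis, was at 87.5, 45.8 and 50.6 CPM in WT and at 21.9, 37.1 and 41.5 CPM in KO. Among the KO libraries 6 of the 10 NRF2 genes, including Gclc, were lowest in KO 1, the library with the highest Slc7a11. Of all 15223 genes tested 6434 were lowest there among the KO libraries. The list went both ways, since 4 were highest in KO 1, against 43.8% of all genes.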
